A study of Mus musculus with 6 samples.

Results

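Dpf3 and 9 other genes of BAF complexes were followed across embryoid bodies in which the homeobox factor HOXB4 had or had not been induced. The 10 genes are Dpf3, its paralogues Dpf1 and Dpf2, the related Phf10, the ATPase genes Smarca2 and Smarca4, and the subunit genes Smarcb1, Smarcc1, Smarcd3 and Arid1a. Every probe set named for 1 of these genes alone was taken, which gave 22 of the 45037 probe sets that are not array controls, and 10 of 18193 named genes. Dpf3 was chosen by its doxycycline difference in these same arrays and the others as its relatives, so the doxycycline values of all 10 are described without a test of their own. Of the 22 probe sets, 19 passed the filter on dim signals; the other 3, one each of Dpf1, Smarcb1 and Smarcc1, had means of at most 36.0.

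The embryoid bodies, clumps of differentiating mouse embryonic stem cells, came from 1 line, Hoxb4i, whose tet-on cassette turns on HOXB4 when doxycycline is given. All were started at 3500 cells/ml and lysed on day 6. The dox group had received doxycycline at 2 µg/ml for 48 hours from day 4, and the no-dox group carried the same cassette uninduced. Each group held 3 biological replicates, 1 per experiment (A, B and C), hybridized to 6 Affymetrix arrays in all. The p-values of dox against no-dox without a block measure the spread between the 3 replicates of a group, whose number sets how precise they can be. Those between experiments measure how far the doxycycline differences of the experiments disagree, with 1 dox and 1 no-dox array in each. No experiment was itself repeated, so they do not measure how a repeat of B or C would vary. An embryoid body is a mixture of cell types, so fewer cells of a type and less RNA per cell cannot be told apart. Doxycycline on cells without the cassette was not analysed here.

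BAF complexes, the mammalian SWI/SNF remodellers, use ATP to move nucleosomes and so open or close chromatin. An ATPase, BRG1 from Smarca4 or BRM from Smarca2, works with core subunits from Smarcb1 and Smarcc1 and with variable subunits that are exchanged as cells differentiate. One variable position is filled by a protein with paired PHD fingers, from Phf10, Dpf1, Dpf2 or Dpf3. Dpf3 reads acetylated histones and is known from mouse, chick and zebrafish work for a part in heart and skeletal muscle development. Smarcd3, a variable subunit, is known in the mouse as a partner of cardiac transcription factors. Phf10 is known from neural progenitors, Dpf1 from neurons, and Arid1a and Smarca4 from the complex of embryonic stem cells.

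HOXB4 is a homeodomain protein, and homeodomains share a preference for the letters TAAT. The promoter windows are shown because the arrays were made to look for HOXB4 targets and because Dpf3, Smarca2 and Smarcd3 varied between the experiments below. Each window runs from 250 bases before to 50 after an annotated gene start, in RefSeq build GRCm38.p6, 5′ to 3′ on the gene's strand, with TAAT on either strand in capitals.
Dpf3, chr12:83487687-83487986, minus strand: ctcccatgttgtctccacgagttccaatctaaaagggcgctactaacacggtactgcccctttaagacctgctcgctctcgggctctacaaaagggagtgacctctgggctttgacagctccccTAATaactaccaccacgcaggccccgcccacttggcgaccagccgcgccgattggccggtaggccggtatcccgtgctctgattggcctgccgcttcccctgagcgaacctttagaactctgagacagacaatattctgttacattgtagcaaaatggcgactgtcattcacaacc
Smarca2, chr19:26604910-26605209, plus strand: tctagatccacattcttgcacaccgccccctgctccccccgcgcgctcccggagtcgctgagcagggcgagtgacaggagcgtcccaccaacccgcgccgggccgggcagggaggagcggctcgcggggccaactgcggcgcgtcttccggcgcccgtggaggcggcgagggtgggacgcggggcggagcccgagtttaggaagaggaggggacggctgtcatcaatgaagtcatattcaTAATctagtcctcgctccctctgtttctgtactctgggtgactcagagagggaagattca
Smarcd3, chr5:24601953-24602252, minus strand: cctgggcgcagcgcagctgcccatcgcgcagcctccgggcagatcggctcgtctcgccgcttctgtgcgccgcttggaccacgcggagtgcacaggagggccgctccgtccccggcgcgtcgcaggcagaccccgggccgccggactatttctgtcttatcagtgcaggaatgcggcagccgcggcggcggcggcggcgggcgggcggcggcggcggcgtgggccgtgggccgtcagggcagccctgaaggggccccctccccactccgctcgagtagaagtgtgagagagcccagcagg

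All 10 genes had a window in the RefSeq table, 11 windows in all since Arid1a has more than one. TAAT was found in 2 of them, those of Dpf3 and Smarca2, and in 58.0% of the 32851 windows of the table. Relative to the gene start the Dpf3 match begins at -126 and the Smarca2 match at -10. TGATNNAT, the letters of a joint site of PBX and Hox proteins, was in 0 of the 11 windows and in 8.85% of all windows. The letters AGATAA, bound by factors of the blood and heart such as GATA4, were in 0 of the 11 and in 11.2% of all. For the cardiac factor NKX2-5 the letters TNAAGTG were searched, and they were in 0 of the 11 and in 11.5% of all. Both strands were searched, and TAAT can overlap TGATNNAT. A match here is a description of letters and not of binding.

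Hoxb4 itself is the check of the labels. On probe set 1451761_at its signals were 116.4, 129.5 and 175.5 in the dox arrays of A, B and C, against 46.5, 119.8 and 113.5 in the no-dox arrays. On 1460379_at they were 136.3, 261.4 and 150.7 in the dox arrays, against 78.2, 253.0 and 27.6 in the no-dox arrays. The dox array was the higher one in every experiment on both probe sets, but in B the log2 differences were only 0.10 and 0.04. Whether either probe set can detect the cassette transcript is not known here. The median signal per array was 92.0 to 108.6. The no-dox array of A stood apart in a control of RNA quality: its ratio of 3′ to 5′ control signal for Actb was 2.88, against 1.26 to 1.48 on the other 5 arrays. For Gapdh, the other such control, the gap was smaller, at 1.08 against 0.83 to 0.90.

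Dpf3 is read by a pair of probe sets, and they gave different pictures of the induction. On 1441659_at, built from an expressed sequence tag, the signals were 96.6, 142.1 and 255.4 in the dox arrays of A, B and C, against 25.7, 54.8 and 26.7 in the no-dox arrays. The lowest dox array therefore lay above the highest no-dox array. The means were 164.7 ± 81.8 with doxycycline and 35.7 ± 16.5 without (SD, n = 3 each), a ratio of 4.61. On the log2(signal + 18.8) scale, which understates the change of dim probe sets, the difference came to 1.37 (A), 1.13 (B) and 2.59 (C), with a mean of 1.70 ± 0.78 (SD, n = 3). Dpf3 was chosen by the signals of this probe set.

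On 1450162_at, built from the RefSeq transcript of Dpf3 and the brighter of the pair, the same RNA showed no such separation. Its signals were 83.3, 323.1 and 120.3 in the dox arrays of A, B and C, against 100.6, 337.5 and 55.9 in the no-dox arrays. Here the groups overlapped fully and both arrays of B were high, whatever the treatment. The means were 175.6 ± 129.1 with doxycycline and 164.7 ± 151.3 without (SD, n = 3 each). The log2 difference came to -0.23 (A), -0.06 (B) and 0.90 (C), with a mean of 0.20 ± 0.61 (SD, n = 3); it was 0.84 without the no-dox array of B, -0.30 without the dox array of B and -0.28 without the no-dox array of C. Only in C did both Dpf3 probe sets have a clearly higher dox signal. Over the 6 arrays the log2 values of the pair correlated at r = 0.32, a description that includes the differences between experiments.

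**Figure D1:**
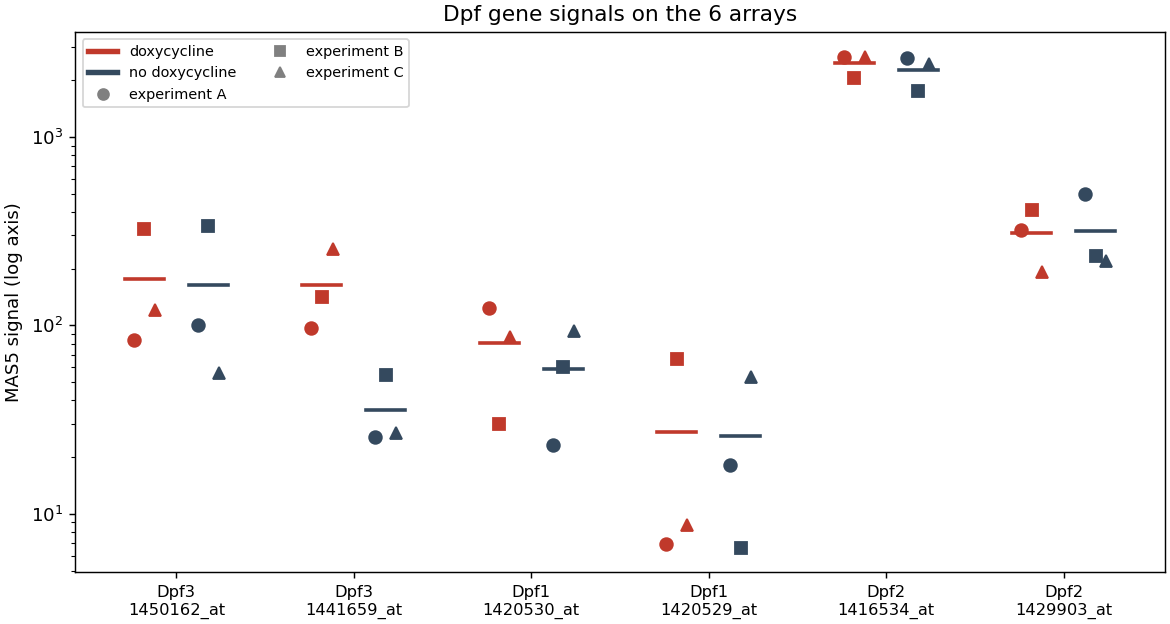
MAS5 signal (log axis) of all 6 probe sets of Dpf3, Dpf1 and Dpf2 on each array, dox left of no-dox, with experiments as symbols and bars for the mean of 3. Dpf3 1441659_at has every dox array (96.6 to 255.4) above every no-dox array (25.7 to 54.8), while Dpf3 1450162_at has both arrays of B (323.1 and 337.5) above the other 4.

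The paralogues did not share the 1441659_at pattern. Dpf2, the family member made in most tissues, had signals of 2664.5, 2068.5 and 2646.7 in the dox arrays of A, B and C on 1416534_at, against 2629.8, 1764.3 and 2449.4 in the no-dox arrays. The log2 differences were 0.02, 0.23 and 0.11, all above 0 and all small, with overlapping groups. Their mean of 0.12 became -0.05 without the no-dox array of B, 0.24 without the dox array of B and 0.23 without the no-dox array of A. The dimmer Dpf2 probe set 1429903_at gave -0.61 in A, 0.76 in B and -0.18 in C. Dpf1, known from neurons, was dim: on 1420530_at its signals were 123.6, 30.0 and 87.1 in the dox arrays, against 23.3, 60.3 and 93.0 in the no-dox arrays. The experiments thus pointed in different directions, by 1.76, -0.70 and -0.08. Its other probe set, 1420529_at, lay between 6.6 and 66.0 and was not tested.

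Phf10, the remaining gene of that variable position, also split by probe set. On 1449085_at the signals were 3887.4, 3435.8 and 3026.3 in the dox arrays of A, B and C, against 1509.3, 3721.3 and 3363.3 in the no-dox arrays. The no-dox array of A stood below all others, with a difference of 1.35 in A, and B and C gave -0.11 and -0.15. On 1435774_at that same array was the highest of the 6, at 1207.3 against 611.1 to 1096.7, and the differences were -0.14, -0.00057 and -0.28.

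Smarca4, Smarcb1, Smarcc1 and Arid1a, which encode an ATPase, core subunits and a DNA-binding subunit, were bright, and on their brightest probe sets the doxycycline differences in B and C were at most 0.34. Smarca4 had signals of 6233.1, 5398.4 and 6703.6 in the dox arrays of A, B and C on 1426804_at, against 7218.7, 4774.5 and 5284.6 in the no-dox arrays. Its log2 differences were -0.21, 0.18 and 0.34. Smarcb1 had 2853.2, 3346.7 and 4004.4 in the dox arrays on 1416045_a_at, against 2621.7, 2914.8 and 3670.4 in the no-dox arrays, or 0.12, 0.20 and 0.13 on the log2 scale. These groups overlapped, since the level differed between experiments by more than between treatments. Smarcc1 on 1423416_at gave -0.88 in A, -0.06 in B and 0.21 in C, and Arid1a on 1448709_at gave 0.06, -0.12 and -0.10. Smarcd3 gave 0.63 in A, 0.37 in B and -0.45 in C. Smarca2 gave 0.51, 0.45 and -0.13 on 1430526_a_at but 0.34, -0.14 and -0.31 on 1452333_at, so that its probe sets differed in sign in B.

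Some second probe sets of these genes had larger differences. Smarcb1 1435856_x_at was at 817.2, 564.5 and 319.2 in the dox arrays of A, B and C, against 1948.0, 644.8 and 707.1 in the no-dox arrays, lower with doxycycline in all 3 experiments by -1.23, -0.19 and -1.10. The suffix x marks probes that can also match other transcripts, and the other tested Smarcb1 probe set pointed up. Smarcc1 1459824_at, which failed the filter, was at 14.9, 10.2 and 8.2 in the dox arrays, against 116.4, 47.1 and 19.3 in the no-dox arrays. Its groups did not overlap, but its mean signal was under the filter, and the 3 brighter Smarcc1 probe sets did not share its direction in every experiment.

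Across all features, limma called 0 of 27022 probe sets between dox and no-dox (0%), and so 0 of the 19 probe sets followed here; nothing is read from this count, since Dpf3 was chosen in this contrast. At an unadjusted limma p under 0.05 there were 138, of which 76 were higher and 62 lower with doxycycline. With the experiment as a replicate block there were 1065, again with 0 past the adjusted threshold (0%). Both counts are below the fraction of 0.05 of the 27022 that would fall there if no probe set differed. No response to doxycycline is read from them. Of the 19, 11 had a mean difference above 0 and 8 below, with a median of 0.12, against 0.01 over all tested probe sets. Outside Dpf3 the 17 means ran from -0.84, for Smarcb1 1435856_x_at, to 0.36, for Phf10 1449085_at. Of those 17, 2 were higher in all 3 experiments and 2 lower, where all tested probe sets gave 12.8% and 13.2%. Dpf3 1441659_at was the only 1 of the 19 with every dox signal above every no-dox signal, where 2.24% of all tested probe sets had this. Since Dpf3 was chosen by these signals, nothing is read from its place in this count or in the median of the 19. Every dox signal lay below every no-dox signal for 0 of the 19, against 2.11% of all.

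**Figure D2:**
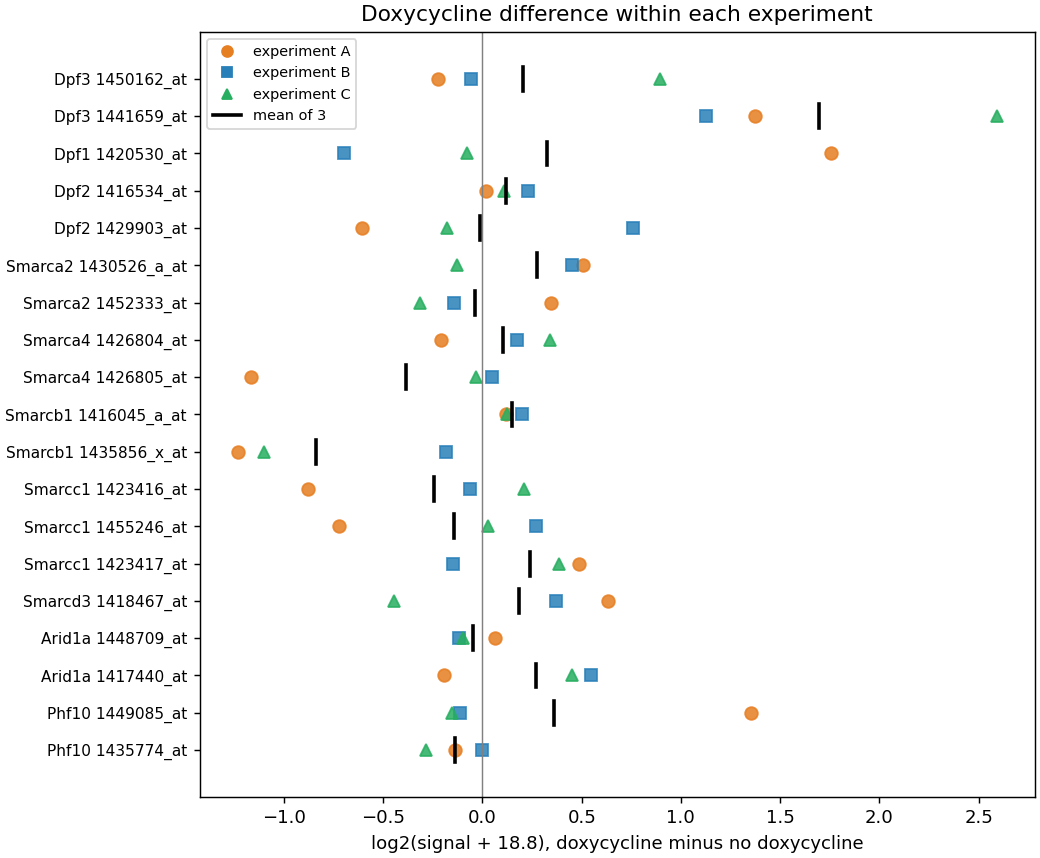
Difference in log2(signal + 18.8), dox minus no-dox, within each experiment (symbols) and as the mean of 3 (bars) for the 19 tested probe sets. Dpf3 1441659_at lies at 1.13 to 2.59, while the means of the 17 probe sets of other genes lie between -0.84 and 0.36 and several, such as Phf10 1449085_at, are set apart by experiment A alone.

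The rule that chose the genes did not use the differences between experiments. The genes and marker lists were, however, chosen with earlier results of these data known. Smarcd3, the subunit known from the heart, differed most clearly. Its signals, dox array before no-dox array, were 958.7 and 611.3 in A, 155.7 and 218.8 in C, and 1568.4 and 1208.7 in B. Both arrays of C lay below all others and both arrays of B above, in either treatment. Experiment C was lower than B by a log2 difference of -2.78 (95% interval -3.46 to -2.09, limma adjusted p = 0.00119) and A was higher than C by 1.95 (1.26 to 2.63, adjusted p = 0.0144). The interval of A minus B was -1.52 to -0.14 (adjusted p = 0.149). The call between C and B was kept in every setting run, including without each single array.

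Dpf3 on its RefSeq probe set 1450162_at and Smarca2, the gene of the ATPase BRM, were also lower in C than in B. For Dpf3 the difference was -1.78 (95% interval -2.67 to -0.88, limma adjusted p = 0.0271), from signals of 120.3 and 55.9 in C and 323.1 and 337.5 in B. Experiment A, at 83.3 and 100.6, lay near C, with an A minus C interval of -0.78 to 1.01. On the Smarca2 probe set 1452333_at the signals were 108.3 and 81.4 in A, 70.3 and 91.9 in C, and 264.5 and 294.0 in B. Again B stood above the other 4 arrays, and C minus B was -1.58 (-2.40 to -0.77, adjusted p = 0.0288). Both calls rest on few arrays: the Dpf3 call was lost without the no-dox array of B (adjusted p = 0.213), the dox array of B (0.111) or the no-dox array of C (0.218). The Smarca2 call was lost without any 1 of the 4 arrays of B and C (0.0857 to 0.223), and with no filter both missed the threshold (0.0560 for Dpf3 and 0.0663 for Smarca2). With both arrays of A left out all 3 calls stood. Their differences could not change there, since C minus B does not use the arrays of A.

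Other probe sets of the same genes did not all follow. Dpf3 1441659_at, the one with the doxycycline difference, had a C minus B of 0.04 with an interval of -1.09 to 1.17. The brighter Smarca2 probe set 1430526_a_at, at 482.3 and 333.5 in A, 666.7 and 730.6 in C and 985.8 and 716.0 in B, had -0.26 (-0.84 to 0.32). Smarcd3 has a single probe set. Over the 6 arrays Dpf3 1450162_at correlated at r = 0.88 with Smarca2 1452333_at, 0.67 with Smarcd3 and 0.51 with the brighter Smarca2 probe set, values that share the arrays and their differences between experiments.

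**Figure D3:**
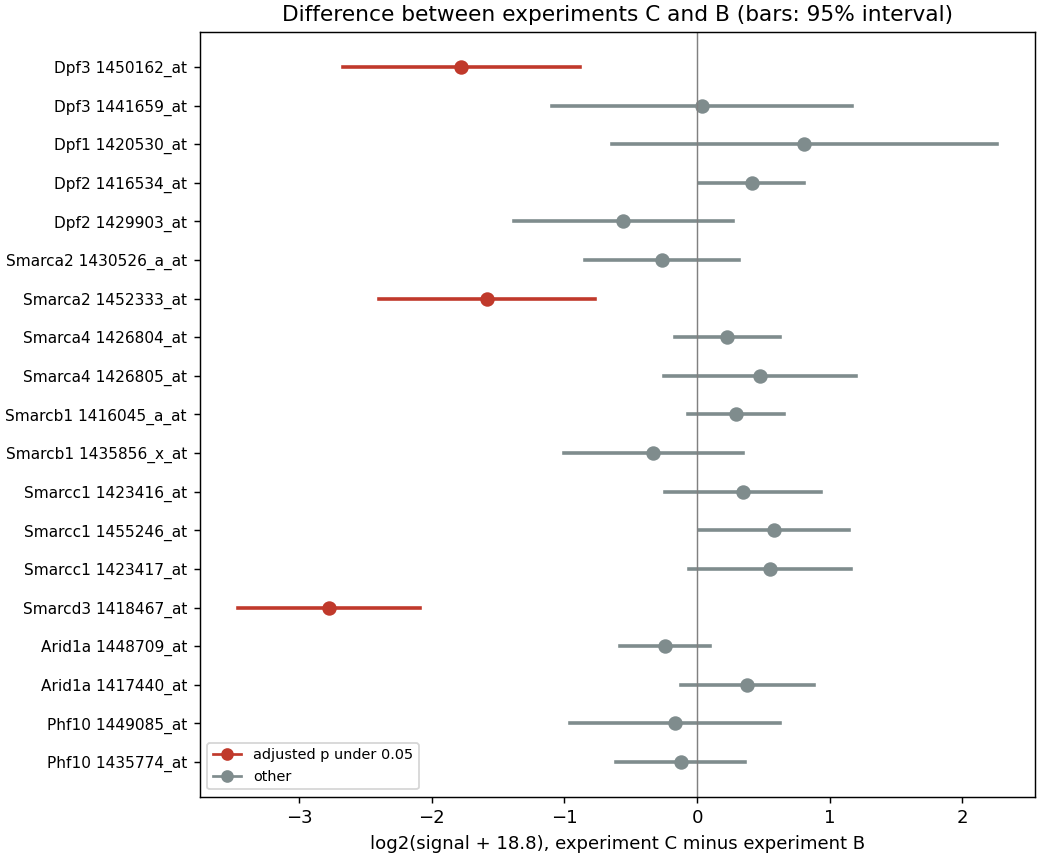
Difference in log2(signal + 18.8) between experiments C and B (C minus B, point) with its 95% interval (bar) for the 19 tested probe sets, from a limma fit with doxycycline as a term. Smarcd3 at -2.78, Dpf3 1450162_at at -1.78 and Smarca2 1452333_at at -1.58 pass the adjusted threshold, all lower in C.

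Read against all features, 3 of the 19 probe sets (15.8%) were lower in C than in B, where 5.26% of the tested probe sets were, and 0 of 19 were higher, against 4.33%; in either direction 9.59% of all were called. The F test over the 3 experiments called 5 of the 19 (26.3%), against 11.6% of all. The other 2 were set apart by A. Arid1a 1417440_at had signals of 3464.1 and 3958.4 in A, 2815.4 and 2054.9 in C and 2237.7 and 1524.4 in B, and was higher in A than in B by 1.00 (95% interval 0.49 to 1.497, limma adjusted p = 0.0483). The other Arid1a probe set lay between 4274.9 and 5442.8 on all arrays. Smarcb1 1435856_x_at was higher in A than in C by 1.37 (0.70 to 2.05, adjusted p = 0.0362). Its signals in A were 817.2 with doxycycline and 1948.0 on the no-dox array, the one with the raised Actb ratio. Its call by the F test was lost without the dox array of C (adjusted p = 0.110) or the no-dox array of C (0.0785), and the Arid1a call without any 1 of the 4 arrays of B and C (0.0851 to 0.209). In these contrasts A minus B called 1 of the 19, against 4.00% of all, and A minus C called 2, against 6.82%.

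These counts depend on single arrays. The F test called 16 of the 19 (84.2%) without the dox array of A, against 51.1% of all tested probe sets, and 11 (57.9%) without the no-dox array of A, against 32.4% of all. It called 2 of the 19 without the dox array of B, the no-dox array of B or the dox array of C, and 1 without the no-dox array of C, where 5.56% to 6.54% of all were called. The count over all probe sets thus moved with the same arrays. With both arrays of A left out, C minus B called 9 of the 19 (47.4%), against 30.3% of all tested probe sets. The 6 added were Dpf2 1416534_at, Smarca4 1426805_at, Arid1a 1417440_at and the 3 tested Smarcc1 probe sets, all higher in C than in B by 0.35 to 0.58. Of these, Smarcc1 1455246_at had 3181.6 and 3119.3 in C, against 2314.1 and 1914.1 in B (0.58, adjusted p = 7.74e-05). Dpf2 1416534_at had 2646.7 and 2449.4 in C, against 2068.5 and 1764.3 in B (0.41, adjusted p = 0.00841). With A left out few arrays remain to estimate the spread, so these p-values lean on the spread of the other probe sets. In the fit of all arrays the differences were the same and none of the 6 passed the threshold. There the limma adjusted p was 0.197 for Smarcc1 1455246_at and 0.188 for Dpf2 1416534_at.

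The RNA signals of cell type markers differed between the same experiments. Among 13 cardiac markers, of which 11 were tested, 8 were lower in C than in B past the threshold and 0 higher, with a median difference of -3.38. Their summed signal was 6332.7 and 5520.2 in A, 1027.8 and 1052.9 in C, and 13959.1 and 12981.6 in B. The visceral endoderm sum ran in the same order, at 6605.5 and 5962.8 in A, 588.4 and 566.5 in C, and 14495.0 and 15660.4 in B. Most of it in B was Ttr, at 10701.3 and 11110.3. Rbp4 and Apoa1 ran in the order of the sum too, but not every gene of the list did. Afp was highest in A, at 827.5 and 768.8, against 80.4 and 164.6 in B. Apob was alike in A (277.0 and 259.0) and B (298.0 and 257.2). Smarcd3 also ran B above A above C, as the cardiac and visceral endoderm sums did. Hand2, a transcription factor gene of the heart, stood at 2008.1 and 710.2 in A, 170.6 and 73.0 in C and 6027.5 and 4865.0 in B. The lowest cardiac marker signal was 5.1, and without detection calls so dim a signal does not show expression.

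Other lineages moved too, so that Smarcd3 and Dpf3 cannot be set beside the heart list alone. All 5 endothelial markers were lower in C, with summed signals of 1282.8 and 469.1 in A, 229.5 and 626.0 in C, and 5122.5 and 4715.7 in B. Of 8 tested blood markers 3 were lower, among them the embryonic globin genes Hba-x and Hbb-bh1; the summed signal was 3737.6 and 1063.4 in A, 1938.9 and 2033.6 in C, and 27591.7 and 37145.7 in B. Of 5 visceral endoderm markers 4 were lower in C. In the other direction, 7 of 8 tested neural markers were higher in C, with summed signals of 2851.1 and 3588.4 in A, 6011.2 and 7146.6 in C, and 499.8 and 686.2 in B, and 4 of 5 pluripotent markers were higher. The lowest signal in these lists was 1.5, of a neural marker, and without detection calls such dim signals do not show that a gene was expressed. Blood and endothelial sums were high in B and low in both A and C, as were Dpf3 1450162_at and Smarca2 1452333_at. The blood sum in B was mostly Hbb-bh1 (20436.5 with doxycycline and 27950.9 without) and Hba-x (5037.4 and 7277.8). Of the 8 tested blood markers the F test called 3, so this likeness is to the globin signals more than to the list. The part of the cell mixture in the values of Smarcd3, Dpf3 and Smarca2 was not tested.

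**Figure D4:**
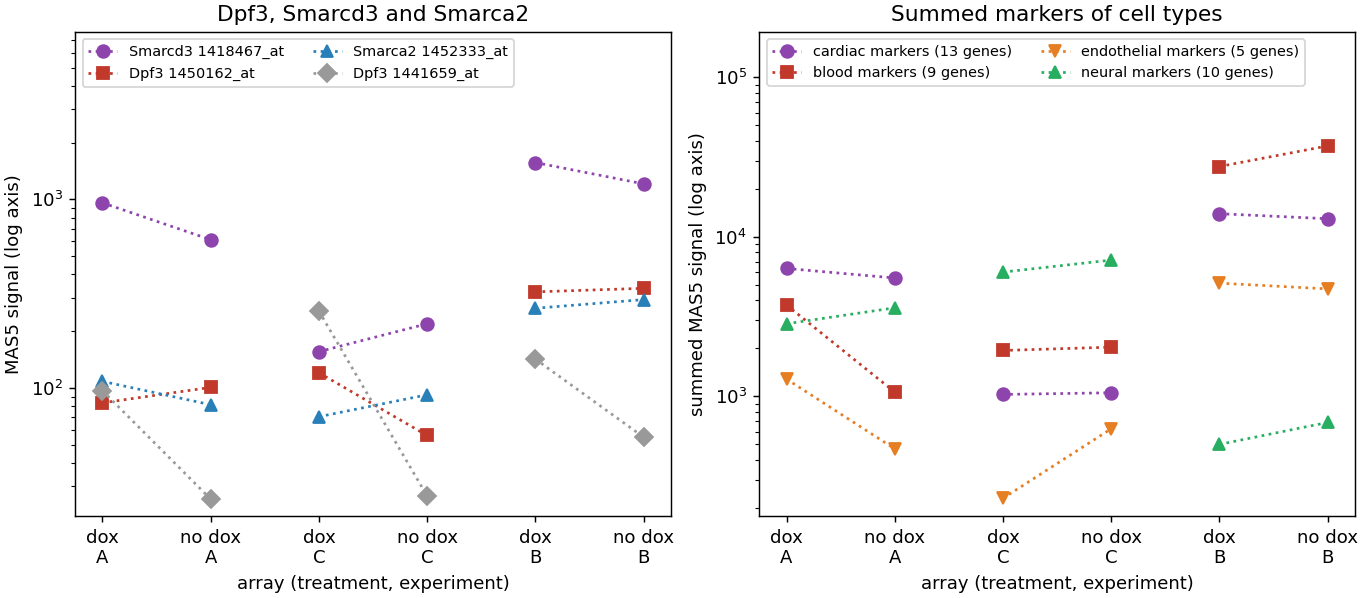
Left, MAS5 signal (log axis) of Smarcd3, both Dpf3 probe sets and Smarca2 1452333_at on the 6 arrays, dox left of no-dox within an experiment; right, summed signal (log axis) of 4 marker lists on the same arrays, with dotted lines joining the pair of an experiment. Smarcd3 runs B above A above C, as do the cardiac sum and the visceral endoderm sum (not drawn), while neural markers are lowest in B (499.8 and 686.2).

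Other remodelling genes were read from the brightest probe set of each, so their counts are not set against the 5 of 19. Of 18 further BAF and PBAF subunit genes 17 were tested and 1 (5.88%) was called by the F test, against 11.6% of all tested probe sets. This was Smarcd2, a paralogue of Smarcd3 at the same variable position. Smarcd2 had signals of 1910.2 and 2692.3 in A, 843.4 and 1022.6 in C, and 2503.3 and 1926.5 in B, lower in C than in B by -1.23 (95% interval -1.78 to -0.67, limma adjusted p = 0.0171). The third paralogue, Smarcd1, pointed the other way, with a C minus B of 1.03 that missed the threshold (0.37 to 1.70, adjusted p = 0.0648). Actl6b, the neuronal actin-like subunit gene, was too dim to be tested, at 6.7 to 55.7. The medians of C minus B were 0.01 over the 17, 0.04 over the 19 probe sets and 0.07 over all tested probe sets.

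Of 23 genes of other remodelling complexes, all tested, the F test called 2 (8.70%, against the same 11.6%). Smarca1, an ISWI ATPase gene, was lower in C than in B by -1.06 (95% interval -1.59 to -0.53, limma adjusted p = 0.0256). Bptf, which encodes a subunit of the NURF complex, was highest in A, at 4429.2 and 5452.7, against 2954.3 to 3424.9 in C and B (F test, adjusted p = 0.0496). Chd3, of the NuRD complex, was not called by the F test (adjusted p = 0.0570). In the pair alone it was higher in C than in B by 1.07 (0.47 to 1.67, limma adjusted p = 0.0407). With doxycycline 0 of the 17 and 0 of the 23 were called, and their median differences were -0.0001 and -0.03.

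The no-dox array of A, whose Actb ratio was raised, was the highest or the lowest of the 6 for 14 of the 19 probe sets (73.7%), and for 53.8% of all tested probe sets. It was highest for 8 and lowest for 6. Probe sets of the same gene lay on opposite sides: Smarcc1 1423416_at was at 5056.1 on that array, against 2413.0 to 3379.2 on the other 5, while Smarcc1 1423417_at was at 298.6, against 376.3 to 676.6. For Smarca4, 1426805_at stood at 2325.6, against 593.0 to 1025.3. The part of RNA quality in these values was not tested. Without both arrays of A the mean difference of Dpf3 1441659_at was 1.86 and that of 1450162_at 0.42.

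**Figure D5:**
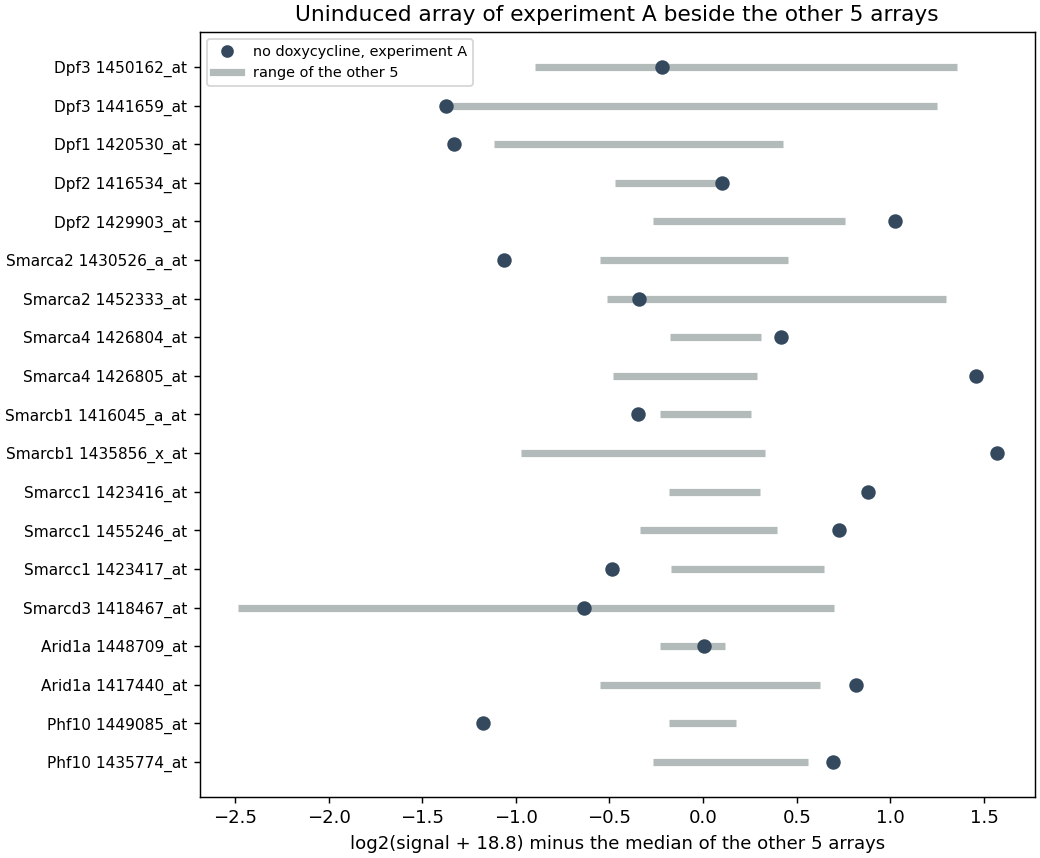
Log2(signal + 18.8) of the no-dox array of experiment A (points) and the range of the other 5 arrays (bars), both minus the median of those 5, for the 19 tested probe sets. The point lies outside the bar for 14 probe sets, above it for 8 and below it for 6.

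The genes whose pattern was most like Dpf3 were found by Pearson correlation of log2(signal + 18.8) over the 6 arrays. For 1450162_at, among 22890 tested probe sets of other named genes, these were Fam189b (r = 0.997), Serping1 (0.995), Mrtfb (0.995), Gucy1a1 (0.993) and Hhat (0.993). Gucy1a1, a subunit gene of the nitric oxide receptor guanylyl cyclase, had 50.4 and 73.4 in A, 88.7 and 26.8 in C and 223.3 and 277.5 in B. Serping1, the gene of the complement inhibitor of C1, had 249.7 and 263.8 in A, 293.2 and 210.1 in C and 529.3 and 489.2 in B. All 5 shared the high arrays of B and the higher dox array of C. An r of 0.95 or more was reached by 124 probe sets, or 0.542% of those compared.

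The same search for 1441659_at was added after its values had been seen. It gave Ctif (r = 0.995), Msto1 (0.984), Rpp25 (0.983), Cand2 (0.977) and Med14 (0.973), with 23 probe sets at 0.95 or more. Ctif, which encodes a translation initiation factor of the nuclear cap complex, had 249.7, 259.9 and 318.9 in the dox arrays of A, B and C, against 178.4, 208.9 and 185.2 in the no-dox arrays. None of the 10 genes followed here was among either set of 5.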

How the data were processed

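The deposited values were intensities, 1 for each probe set on each array, made with MAS5 per the submitters' processing notes. The MAS5 version is not stated there. The mean after trimming 2% off each end was 500 on all 6 arrays, and no normalization was added. From these values log2(signal + 18.8) was computed, 18.8 being the 20th percentile; a probe set entered the tests if its mean reached the 40th percentile (60.5), as 27022 of 45037 did once 64 controls were set aside. Probe sets were named from the array's GEO annotation, parts of which may be outdated, and Entrez IDs gave the present symbols in RefSeq GRCm38.p6 (34741 of 34945 probe sets named for 1 gene matched).

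limma 3.58.1 in R 4.3.3 was fitted across all tested probe sets with an intensity trend, two-sided, with Benjamini-Hochberg adjustment and a threshold of 0.05: dox against no-dox without a block, and experiments (F test, and each pair) with doxycycline as a term. The fits were tested on simulated data. Arrays of 1 letter come from 1 experiment, per the labels; deviations from group means correlated at 0.45 to 0.67 for the same letter and -0.53 to -0.12 for others, so the letters pair the arrays. Alternatives were other offsets, filters, scalings, no trend, the replicate block, no doxycycline term, and leaving out arrays or experiments. Named were all probe sets of the 10 genes and the 5 most like Dpf3. Other remodelling genes were to be up to 4 per list by smallest F test p. Smarcd1 was named as a paralogue of Smarcd2 and Smarcd3, passing over Arid1b, whose F test p was smaller. Actl6b, Chd3 and genes of marker lists were named after their values were seen. Each list gene was read from its brightest probe set. The members and lists were chosen with earlier results of these data known.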

Additional observations from a re-analysis of the deposited data

How the results depend on the processing

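With limma 0 probe sets were called between dox and no-dox in every setting run, the replicate block included, and the block changed no call. In this balanced design the block cannot move a mean difference, which stayed at 0.20 and 1.70 for the Dpf3 probe sets. The F test over experiments called 3138 probe sets, but 1186 with no intensity trend, 8179 without both arrays of A, 1754 without those of B, 1098 without those of C, and 1502 to 13806 without single arrays. C minus B called 2591, but 1686 with no trend, 8179 without A, and 1018 to 8126 without single arrays. Among the 19 probe sets the F test called 5, but 3 with an offset of 1, 1 with no filter, 2 with a filter at the 60th percentile, 1 with no trend, 9, 2 and 1 without A, B and C, and 1 to 16 without single arrays. C minus B called 3 of them, but 1 with no filter, 1 with the stricter filter, 9 without A, and 1 to 9 without single arrays. The stricter filter and the leaving out of arrays change which values enter the fit. The cause of the other shifts was not tested. The stricter filter left out both Dpf3 probe sets, 1 of Dpf1 and Smarca2 1452333_at, so fewer than 19 were tested. Dpf3 1450162_at and Smarca2 1452333_at thus left both counts untested rather than losing their calls. Over all features the F test called 2622 with an offset of 1, 2265 with no filter and 2455 with the stricter filter. C minus B called 2120 with no filter and 2001 with the stricter one. The mean difference of Dpf3 1450162_at ran from -0.30 to 0.84 without single arrays, where a pair is broken and the level of an experiment enters. That of 1441659_at ran from 1.18 with the larger offset to 2.15 with an offset of 1. For the 17 other probe sets 270 of 287 recomputed doxycycline differences stayed within 1 SD of the 3 experiments. The 17 that did not all left out 1 array and so broke a pair. Filters, the trend and the block cannot change a mean difference, and leaving out a whole experiment cannot move it by 1 SD. The 270 therefore include many values that could not have moved that far. The C minus B difference of Dpf3, Smarca2 and Smarcd3 kept its sign in 43 of 43 recomputations, 9 of them past the threshold no longer. Where a setting changed only a filter, the trend, the doxycycline term or arrays of A, the difference itself could not move. The Arid1a call by the F test was lost in 12 settings, among them quantile normalization (adjusted p = 0.0510), and that of Smarcb1 1435856_x_at in 7: no filter (0.0515), no trend (0.123), no doxycycline term (0.108), both arrays of A left out (0.202), both of C left out (0.0976) or either array of C. Where leaving out an array left 1 in an experiment, that array was taken to vary like the rest. Signals are without detection calls, so the dim probe sets of Dpf1 and Dpf3 may lie near background.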
